A study of Ovis aries with 7 samples.

Results

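The transcription factors described here are EBF1, ISL1, SP9, RARB, FOXP1, FOXP2, BCL11B, MEIS2, TSHZ1 and CASZ1, 10 genes known from the development and identity of striatal neurons. They were taken by gene symbol from the feature lists of a single nucleus RNA-seq study of sheep striatum, in which 9 of the 10 were among 26479 annotated features, and CASZ1 was not analysed here. The study compared OVT73 sheep with control sheep. OVT73 sheep carry a transgene of full-length human HTT cDNA with an expanded polyglutamine tract under a segment of the human HTT promoter, and are a model of Huntington's disease. All sheep were 5 years old, controls lacked the transgene, and nuclei came from frozen anterior striatum. The 3 OVT73 libraries and control replicates 3 and 4 each pooled nuclei of 2 sheep, whereas control replicates 1 and 2 held 1 sheep each. OVT73 is a single transgenic line.

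Most neurons of the striatum are medium spiny neurons (MSNs), GABAergic projection neurons that arise in the lateral ganglionic eminence of the embryo. They fall into a D1 type, which carries the dopamine receptor DRD1 and projects by the direct pathway, and a D2 type, which carries DRD2 and projects by the indirect pathway. A further, smaller type, the eccentric MSN, shares MSN genes but stands apart from both in expression. ISL1 and EBF1 act in the D1 branch of development and SP9 in the D2 branch, while FOXP1, BCL11B, MEIS2 and the retinoic acid receptor RARB are used widely by MSNs. FOXP2 and TSHZ1 mark subsets of MSNs, and ISL1 is also a factor of cholinergic interneurons. MEIS2, SP9, TSHZ1 and FOXP2 are also known from immature neurons of the same embryonic origin.

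The 7 libraries held between 20887378 and 70473426 unique molecular identifiers (UMIs, each standing for 1 captured RNA molecule), and OVT73 replicate 1 was the deepest. After filtering, 32599 nuclei were kept, 17439 from OVT73 and 15160 from control libraries, with medians of 1862.5 to 2561 UMIs per nucleus. Between 26 and 75 barcodes of a library also occurred in another library. Clusters were named from markers that hold none of the 9 factors, which gave 28674 nuclei (88.0%) a name in 14 classes. These held 2238 D1 MSN-like nuclei (163 to 520 per library), 1993 D2 MSN-like nuclei (168 to 497), 200 eccentric MSN-like nuclei (17 to 54), 327 PV/Th interneuron-like nuclei (28 to 74) and 1330 neuroblast-like nuclei (47 to 469). The cholinergic-like class held 65 nuclei, 4 to 15 per library. The name is uncertain for its 15 nuclei from control replicate 2. They held no ISL1 UMI, among only 97100 UMIs of all genes. Their median was 2537 UMIs, and that of OVT73 replicate 3 was lower still, at 1483. ISL1 levels of this class are given by library, while its pooled values include control replicate 2. Levels are given as CPM, the UMIs of a gene in every 1000000 UMIs of a class in a library, averaged over libraries with at least 10 nuclei of the class. Because many UMIs of nuclei are intronic and counting was from the 3′ end, levels of different genes were not compared with each other.

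The factors divided the neurons into distinct combinations. EBF1 and ISL1 were highest among MSNs in D1 MSN-like nuclei, SP9 was far lower there than in D2 or eccentric MSN-like nuclei, and FOXP2 and TSHZ1 were highest in eccentric MSN-like nuclei, which held little FOXP1. RARB, MEIS2 and BCL11B were present at similar levels in all 3 MSN classes. PV/Th interneuron-like nuclei shared BCL11B with MSNs but had little MEIS2, FOXP1 or EBF1. The plot of levels by class shows each library.

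**Figure D1:**
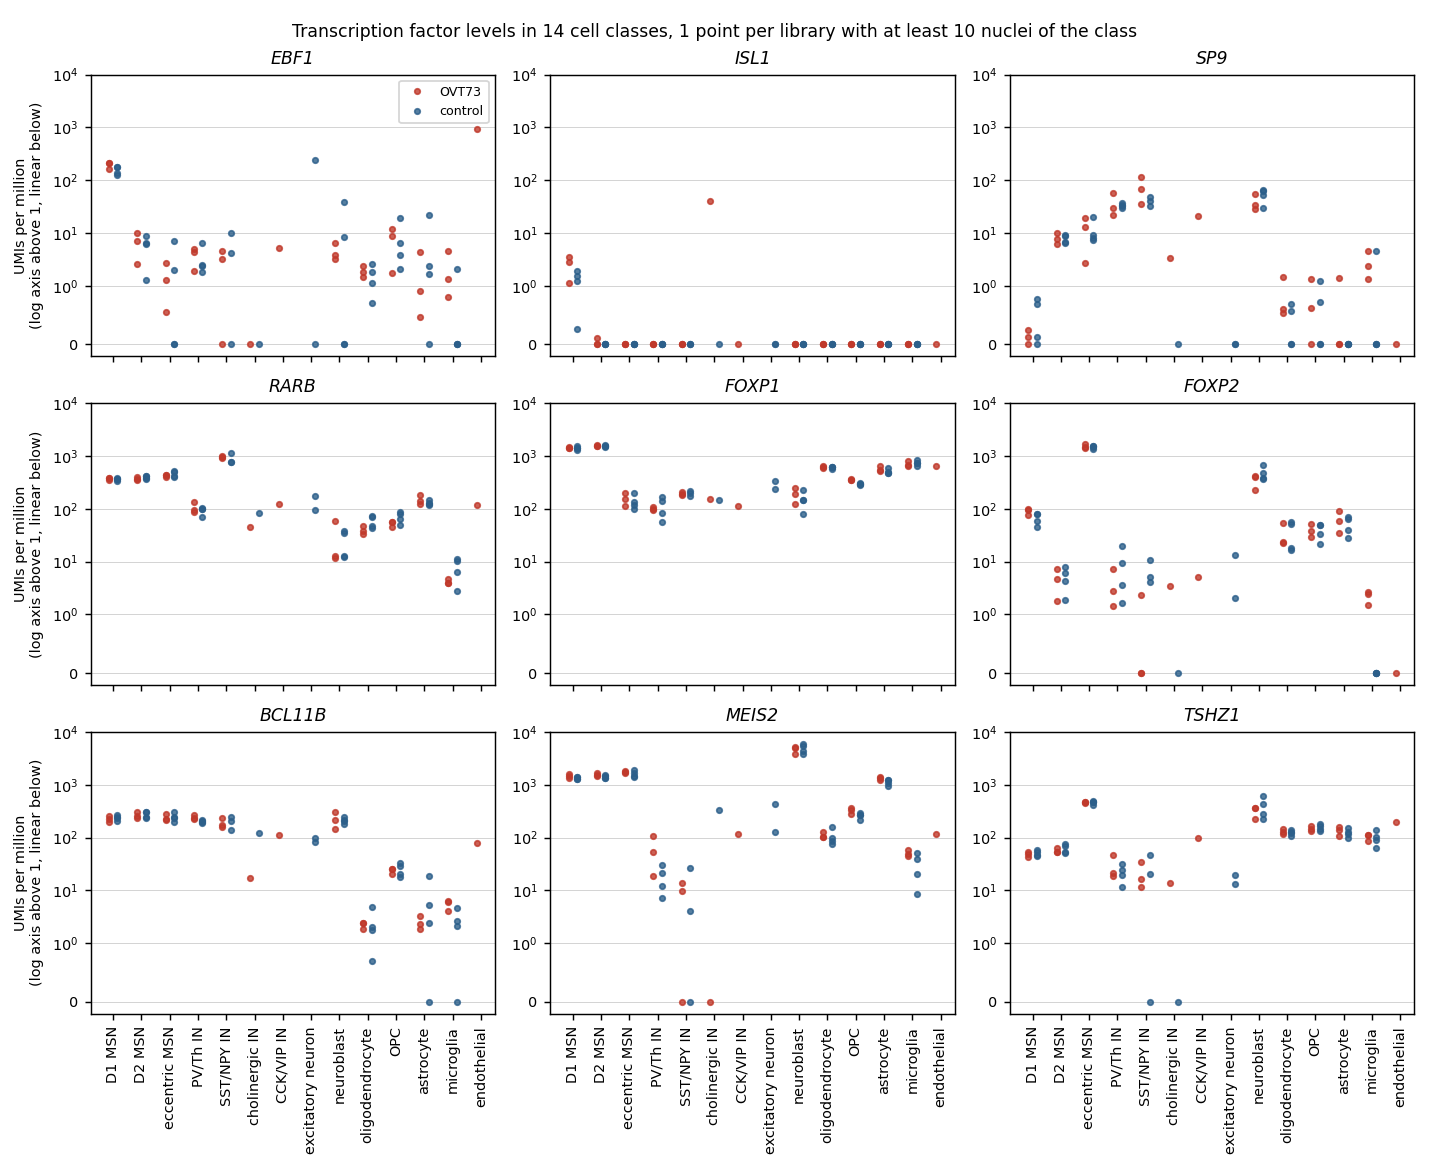
Levels of the 9 factors in 14 cell classes. Each point is 1 library with at least 10 nuclei of the class (red, OVT73, and blue, control), and the vertical axis gives CPM on a log scale above 1 and a linear scale below. EBF1 stands near 173 in D1 MSN-like nuclei and near 6.02 in D2 MSN-like nuclei, and FOXP2 near 1517 in eccentric MSN-like nuclei and near 4.83 in D2 MSN-like nuclei.

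EBF1, a helix-loop-helix factor of the D1 branch, was measured in D1 MSN-like nuclei at 165, 215 and 209.7 CPM in OVT73 replicates 1 to 3 and at 128, 176, 178 and 138 in control replicates 1 to 4. Every one of these values lay above every D2 MSN-like value, which ran from 1.31 to 10.0 with a median of 6.56. Eccentric MSN-like nuclei held 0 to 6.97 CPM, and 2 of the 7 libraries had no EBF1 UMI in them. The mean was 173 ± 32.8 (SD, n = 7) in D1, 6.02 ± 3.11 in D2 and 1.93 ± 2.44 in eccentric MSN-like nuclei. Neuroblast-like (8.57 ± 13.4), OPC-like (7.65 ± 6.16), D2 MSN-like and PV/Th interneuron-like (3.48 ± 1.84) levels overlapped from one class to the next in the order of means. The only named class with a higher mean level than D1 MSN-like nuclei was the small endothelial-like class, in which 51 nuclei together held 75 EBF1 UMIs, or 1016 CPM. The cluster of this class also had raised pericyte markers (PDGFRB, RGS5, ABCC9 and KCNJ8), so that its EBF1 cannot be assigned to endothelial cells alone.

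Single nuclei gave the same picture of EBF1. When each nucleus was thinned to 5000 UMIs, 48.9% of 2223 D1 MSN-like nuclei and 1.52% of 1980 D2 MSN-like nuclei had an EBF1 UMI, and 0.51% of 196 eccentric MSN-like nuclei did. Without thinning the D1 share was 78.0% and the D2 share 3.71%, at median depths of 22287.5 and 23204 UMIs. EBF1 was therefore not detected in a large share of D1 MSN-like nuclei at equal depth, which at this depth does not show that it was absent from them.

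ISL1, a LIM-homeodomain factor of D1 MSNs and cholinergic interneurons, was sparse in every class. D1 MSN-like nuclei held 106 ISL1 UMIs in all, with 19, 36 and 25 in the OVT73 libraries and 9, 6, 9 and 2 in the control libraries. All 7 libraries thus held ISL1 in this class. D2 MSN-like nuclei, which had a similar depth, held 1 ISL1 UMI, so that the ratio of D1 to D2 levels was 94.4 with an exact counting interval of 16.6 to 3762 (95%, counting error only). The D1 level was 1.78 ± 1.08 CPM (n = 7). No ISL1 UMI was found in eccentric MSN-like, PV/Th interneuron-like or neuroblast-like nuclei, where a count of 0 allows up to 0.579, 0.583 and 1.55 CPM over all libraries.

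Cholinergic-like nuclei were the class with the highest ISL1 level. Their 65 nuclei together held 49 UMIs, or 34.8 CPM, and 43.1% of them had at least 1. The libraries gave 41.0, 27.6 and 32.8 CPM in OVT73 and 45.5, 0, 21.9 and 50.2 in control replicates 1 to 4. The value of 0 belongs to control replicate 2, whose nuclei also held BCL11B at 124 and MEIS2 at 329.6 CPM, and the other 6 libraries ranged from 21.9 to 50.2. That range leaves out control replicate 2 partly for its own ISL1 value. With both classes thinned to 5000 UMIs, 13.2% of 38 cholinergic-like nuclei and 1.08% of 2223 D1 MSN-like nuclei had an ISL1 UMI, and no D2 MSN-like nucleus did.

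SP9, a zinc finger factor of the D2 branch, showed the opposite order. D2 MSN-like nuclei held 9.89, 7.55 and 6.20 CPM in OVT73 and 8.63, 9.03, 6.61 and 6.44 in control libraries, 434 UMIs in all. D1 MSN-like nuclei held 14 SP9 UMIs, with levels from 0 to 0.774 CPM. No D1 value reached any D2 value, and the ratio of D2 to D1 levels was 34.8 with a counting interval of 20.5 to 64.2. Eccentric MSN-like nuclei (11.3 ± 6.45, n = 7) overlapped with D2 MSN-like nuclei (7.76 ± 1.44). SP9 was higher still in SST/NPY interneuron-like (56.8 ± 32.0, n = 6), neuroblast-like (46.9 ± 16.0) and PV/Th interneuron-like nuclei (34.6 ± 11.1, n = 7 each), and the last 2 classes overlapped. Not every interneuron class was high, since cholinergic-like nuclei held 2 SP9 UMIs in all, 1.42 CPM pooled. At 5000 UMIs per nucleus, SP9 was found in 4.55% of D2, 5.10% of eccentric, 18.2% of PV/Th interneuron-like and 23% of SST/NPY interneuron-like nuclei, against 0.18% of D1 MSN-like nuclei.

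FOXP1, a forkhead repressor of MSNs, was abundant in both main MSN classes and low in the eccentric class. Its level was 1569 ± 40.2 in D2 and 1433 ± 74.6 in D1 MSN-like nuclei, with ranges that overlapped (1514 to 1631 and 1311 to 1559). Eccentric MSN-like nuclei ranged from 101 to 199.8 CPM (146 ± 39.4), well below both. FOXP1 in them was of the order seen in neuroblast-like (167 ± 61.0) and PV/Th interneuron-like nuclei (107.5 ± 37.8), whose ranges overlapped theirs. Glia held intermediate levels, with 734 ± 80.4 in microglia-like, 615 ± 28.5 in oligodendrocyte-like, 541 ± 60.6 in astrocyte-like and 323 ± 34.8 in OPC-like nuclei. FOXP1 UMIs were found in 99.7% of D1, 99.5% of D2 and 46.9% of eccentric MSN-like nuclei thinned to 5000 UMIs.

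RARB, a receptor for retinoic acid, and BCL11B, also known as CTIP2, varied little among MSNs. RARB measured 445 ± 43.3 in eccentric, 387 ± 24.4 in D2 and 369.7 ± 19.9 in D1 MSN-like nuclei, each overlapping with the next. Its highest level was in SST/NPY interneuron-like nuclei, at 932 ± 154 over 6 libraries with a range of 761 to 1163, above every MSN value. BCL11B measured 267 ± 34.7 in D2, 244 ± 38.0 in eccentric and 232 ± 27.1 in D1 MSN-like nuclei, and its levels in PV/Th interneuron-like (222 ± 26.3) and neuroblast-like nuclei (214 ± 50.2) overlapped with those of MSNs. As CPM, BCL11B thus overlapped with MSN levels in the 2 most numerous of the other named neuronal classes. With the TMM scaling of the tests given further below, it was called lower in both than in D1 MSN-like nuclei. The lowest neuroblast-like library, at 142 CPM, lay above the highest OPC-like library, at 32.6. Not every neuronal class had BCL11B above glia, since cholinergic-like nuclei held 17 UMIs in all, 12.1 CPM pooled, and OPC-like nuclei 23.5 pooled. The cholinergic-like value includes control replicate 2, which held 124 CPM, against 17.1 in the other library with at least 10 such nuclei.

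MEIS2, a TALE homeodomain factor, was highest in neuroblast-like nuclei. They held 5276, 5044 and 3872 CPM in OVT73 and 5306, 5795, 3788 and 4401 in control libraries, all above the highest MSN value of 1934. MSN levels were 1685 ± 189.9 in eccentric, 1481 ± 123 in D2 and 1392 ± 115 in D1 MSN-like nuclei. Astrocyte-like nuclei, at 1211 ± 160.3, overlapped with D1 MSN-like nuclei. MEIS2 was low in PV/Th interneuron-like (35.3 ± 34.1) and SST/NPY interneuron-like nuclei (8.98 ± 10.1, n = 6), and 7.35% of PV/Th interneuron-like against 99.3% of D1 MSN-like nuclei had a MEIS2 UMI at 5000 UMIs per nucleus.

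FOXP2, the forkhead relative of FOXP1, was the factor that set eccentric MSN-like nuclei furthest from D2 MSN-like nuclei. The eccentric level was 1688, 1441 and 1496 CPM in OVT73 and 1556, 1568, 1492 and 1375 in control libraries. Neuroblast-like nuclei followed at 421 ± 134 and D1 MSN-like nuclei at 75.9 ± 18.5 (n = 7 each), with no overlap between these 3 classes. D2 MSN-like nuclei held 4.83 ± 2.40. At 5000 UMIs per nucleus FOXP2 was found in 99.0% of eccentric, 22.9% of D1 and 1.92% of D2 MSN-like nuclei. FOXP1 and FOXP2 thus had opposite orders in eccentric against D2 MSN-like nuclei.

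TSHZ1, a zinc finger factor of a subset of MSNs, ranged from 419 to 502 CPM in eccentric MSN-like nuclei (463 ± 26.2). D2 (59.9 ± 9.66) and D1 MSN-like nuclei (50.0 ± 5.47) were far lower and overlapped with each other. Neuroblast-like nuclei varied more widely between libraries, from 221 to 605, and overlapped with the eccentric class. The glial classes, from 100.3 ± 23.9 in microglia-like to 153 ± 17.4 in OPC-like nuclei, all had higher means than D1 and D2 MSN-like nuclei. TSHZ1 UMIs were found in 85.7% of eccentric, 23.6% of D2 and 21.5% of D1 MSN-like nuclei thinned to 5000 UMIs.

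The classes were then compared within libraries, with UMIs summed per class and library, the library as a block, and edgeR's quasi-likelihood test over all genes with Benjamini-Hochberg adjustment. The genes used to form clusters vary with the classes and other genes vary with them, so these tests show how stable a difference was over libraries and not an independent separation. Log2 fold changes are given with their SE. Between D1 and D2 MSN-like nuclei, 8 of the 9 factors passed an adjusted p of 0.05, where 11.7% of 12971 genes did. ISL1 (5.66 ± 0.53, adjusted p = 1.86e-11), EBF1 (4.95 ± 0.20, 6.91e-06) and FOXP2 (4.19 ± 0.26, 7.41e-05) were higher in D1, in 7 of 7 libraries each. SP9 was lower in D1 (-5.01 ± 0.25, 3.68e-19), also in 7 of 7 libraries. ISL1, with 1 UMI in D2, and SP9, with 14 UMIs in D1, met the count filter only through the class where they were high. Their adjusted p values are therefore no further support for these differences. The same holds for SP9 in the later contrasts of other classes with D1 MSN-like nuclei.

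The remaining D1 to D2 differences were small over the whole classes. TSHZ1 (-0.24 ± 0.05, adjusted p = 0.00127), BCL11B (-0.21 ± 0.03, 6.86e-07), FOXP1 (-0.14 ± 0.02, 1.73e-05) and MEIS2 (-0.09 ± 0.02, 0.00363) were lower in D1 by the quasi-likelihood test. As CPM, each was lower in D1 in 7 of 7 libraries. RARB differed by -0.07 ± 0.03 with a 95% interval of -0.12 to -0.01 and did not pass (adjusted p = 0.138). The 4 small differences were called only in the comparison within libraries: without the block TSHZ1, BCL11B, FOXP1 and MEIS2 did not pass (adjusted p = 0.411 to 1.00). When D1 and D2 nuclei were instead called from the markers in each nucleus, the TSHZ1 difference turned to 0.20 (adjusted p = 0.228). That set held 105 eccentric MSN-like nuclei, and without them, an alternative chosen after seeing the data, it was -0.28 ± 0.08 (adjusted p = 0.0109).

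Eccentric MSN-like nuclei differed from D1 MSN-like nuclei in 7 of 8 factors tested, where 28.4% of 11522 genes were called. SP9 (5.45 ± 0.49), FOXP2 (4.31 ± 0.10) and TSHZ1 (3.18 ± 0.08) were higher by the largest margins. MEIS2 (0.23 ± 0.07, adjusted p = 0.00834 by edgeR) and RARB (0.22 ± 0.07, 0.0162) were slightly higher. EBF1 (-6.83 ± 0.22) and FOXP1 (-3.35 ± 0.15) were lower. BCL11B did not differ detectably (0.03 ± 0.07, interval -0.12 to 0.18, adjusted p = 0.803). ISL1 had too few UMIs to be tested.

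Against D2 MSN-like nuclei, 5 of 8 factors passed in eccentric MSN-like nuclei, where 27.7% of 11311 genes were called. FOXP2 (8.36 ± 0.33) and TSHZ1 (2.92 ± 0.08) were higher, and FOXP1 (-3.49 ± 0.14), EBF1 (-1.86 ± 0.45, adjusted p = 0.00142 by edgeR) and BCL11B (-0.18 ± 0.07, 0.0498) were lower. Eccentric MSN-like nuclei held only 8 EBF1 UMIs in all, and their EBF1 levels overlapped with those of D2 MSN-like nuclei. The BCL11B call was lost when any 1 library was left out. SP9 (0.47 ± 0.25, interval -0.03 to 0.97, adjusted p = 0.173), MEIS2 (0.13 ± 0.06, 0.117) and RARB (0.15 ± 0.07, 0.111) did not pass. FOXP2, TSHZ1 and FOXP1 thus separated the eccentric class from both main classes, whereas SP9 and EBF1 separated D1 from the other 2 with large margins.

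**Figure D2:**
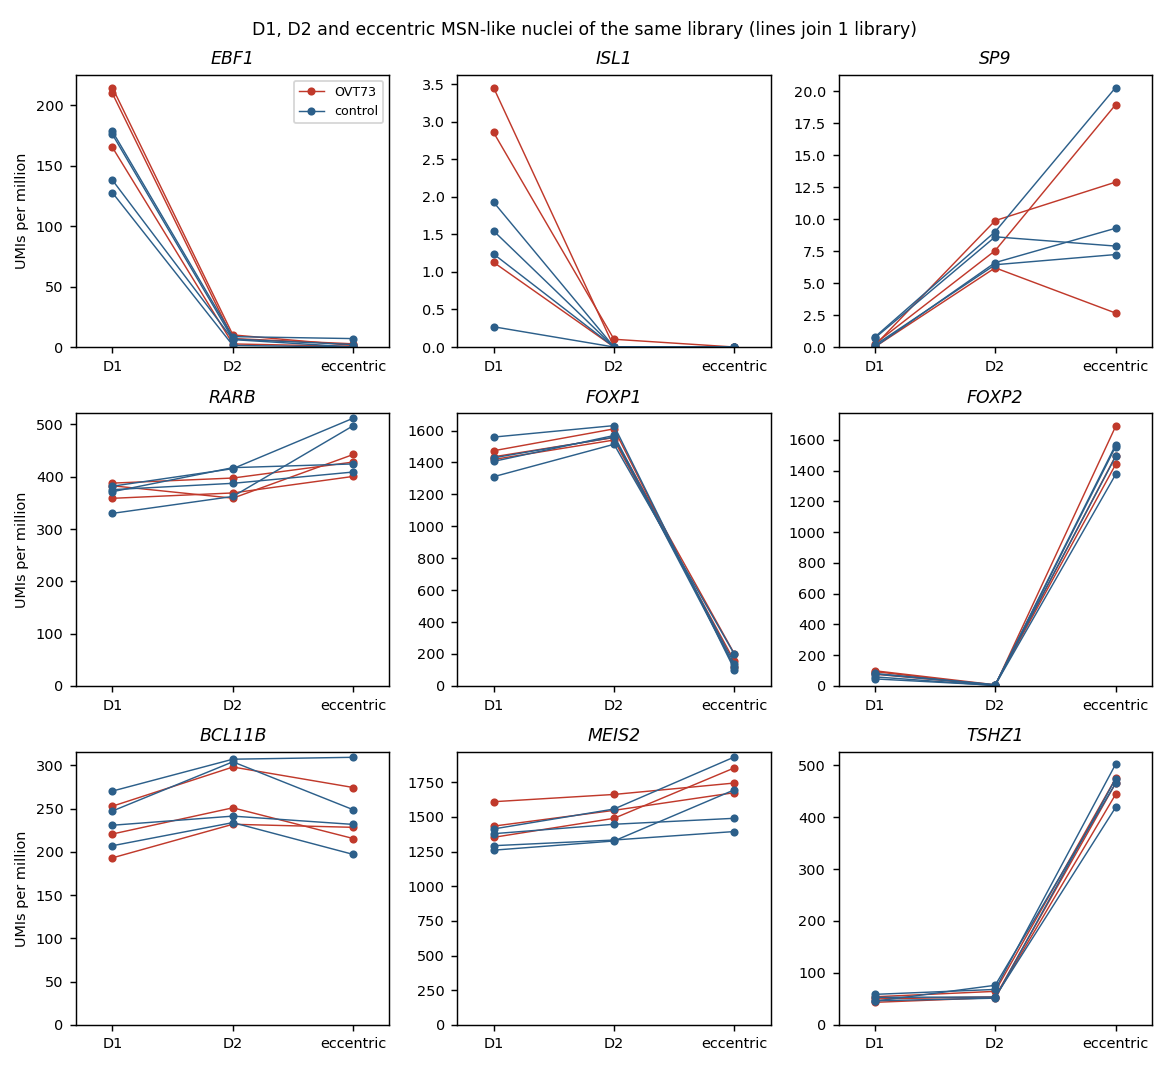
Levels of the 9 factors in D1, D2 and eccentric MSN-like nuclei, with the 3 classes of 1 library joined by a line (red, OVT73, and blue, control) and CPM on the vertical axis. FOXP1 falls from 1311 or more in D1 and D2 to 199.8 or less in eccentric MSN-like nuclei in each library, and FOXP2 and TSHZ1 rise.

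Within the D1 class the factors were not even. It was made of 4 clusters, here called a to d, with 1272, 658, 191 and 117 nuclei. FOXP2, pooled over libraries, was 50.2 and 51.9 CPM in clusters a and b and 220.3 and 302 in clusters c and d. ISL1 (5.83 and 4.62 against 1.26 and 1.21) and TSHZ1 (103 and 114 against 36.5 and 44.8) followed the same split. EBF1 went the other way, at 110.2 and 127 in clusters c and d and at 182 and 185 in clusters a and b. By library, EBF1 overlapped, at 75.7 to 146 in c and 97.8 to 147 in d against 136 to 222 in a and 124 to 263 in b. ISL1 overlapped too, at 1.32 to 11.8 in d against 0 to 3.26 in b, whereas FOXP2 and TSHZ1 did not overlap between c or d and a or b. These clusters were formed without the 9 factors, but no test of clusters against each other was made. Clusters c and d held between 7.98% and 17.1% of a library's D1 MSN-like nuclei. Without them, an alternative chosen after seeing the data, FOXP2 was still higher in D1 than in D2 MSN-like nuclei (3.51 ± 0.24, adjusted p = 8.84e-05 by edgeR). TSHZ1 was then lower in D1 by a larger margin than over the whole class (-0.53 ± 0.05, adjusted p = 3.82e-11 by edgeR).

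The D2 class was made of 3 clusters of 1134, 713 and 146 nuclei. MEIS2 was 1363, 1567 and 2114 CPM in them and SP9 was 8.38, 6.86 and 15.1. FOXP1 ranged from 1471 to 1771. FOXP2 was 2.59, 4.46 and 11.7, below the pooled level of every D1 cluster. Library values overlapped, since the D2 cluster of 146 nuclei reached 48.4 CPM and D1 clusters a and b started at 25.3 and 15.6.

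**Figure D3:**
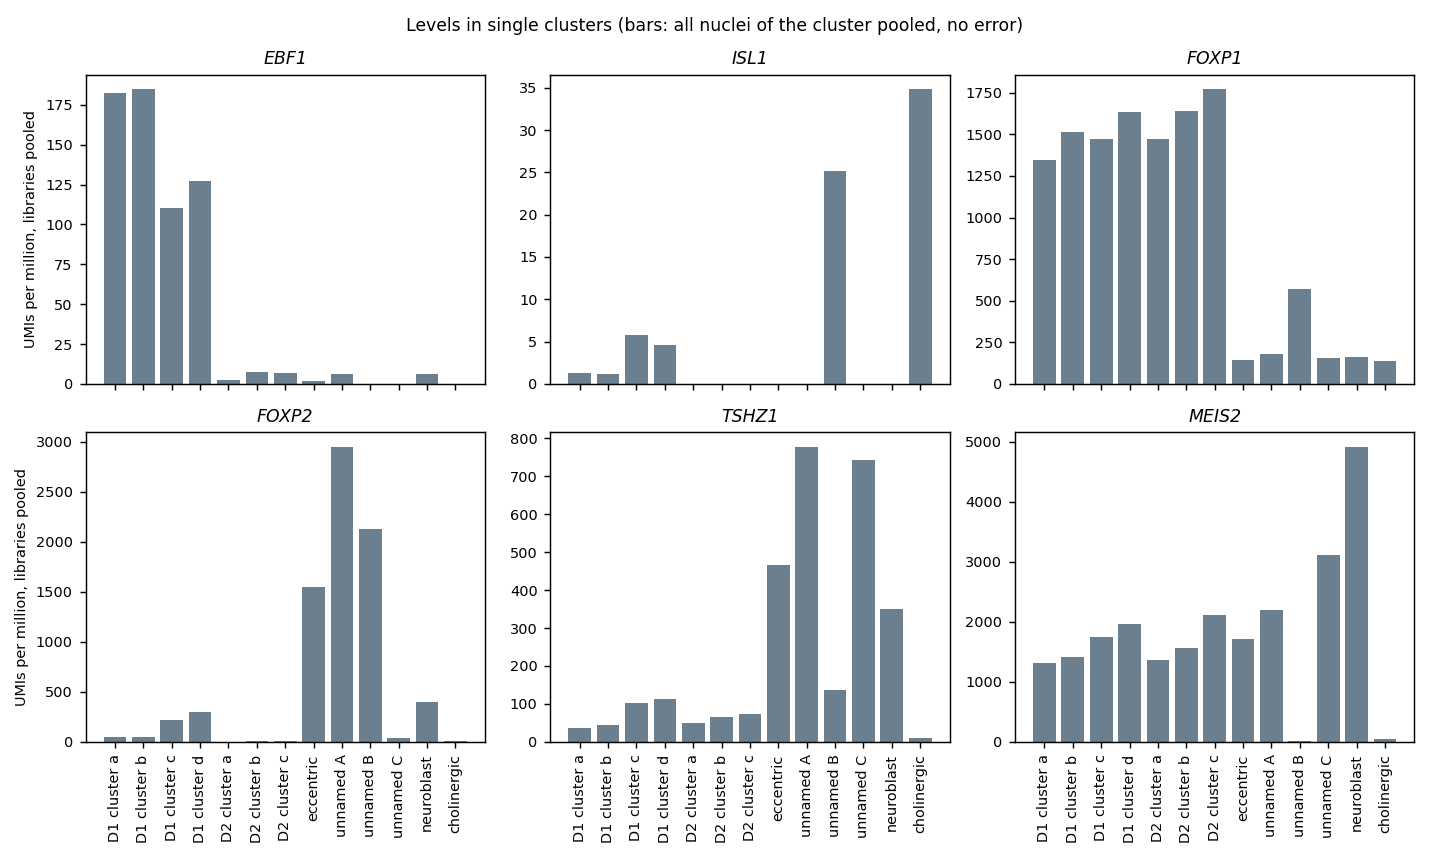
Pooled levels of 6 factors in single clusters, as CPM of all nuclei of the cluster, without error bars since libraries are pooled. The 4 D1 and 3 D2 clusters, the eccentric, neuroblast and cholinergic-like clusters and 3 clusters without a name (A, led by KCNIP4, FOXP2 and VWC2L, B, led by CXCL14 and KCNIP4, and C, led by CPNE4 and SCGN) are shown. FOXP2 is highest in unnamed cluster A at 2947, and FOXP1 is 1471 or more in the D2 clusters and 573 or less outside the D1 and D2 clusters.

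In PV/Th interneuron-like nuclei, GABAergic local neurons from the medial ganglionic eminence, 1 factor was higher and 7 were lower than in D1 MSN-like nuclei. Of all genes tested, 59.6% of 11922 were called in this contrast, so that being called says little about a factor here. SP9 was higher (6.77 ± 0.36). EBF1 (-5.90 ± 0.18), MEIS2 (-5.67 ± 0.40), FOXP2 (-4.32 ± 0.31), FOXP1 (-4.13 ± 0.19), RARB (-2.24 ± 0.10) and TSHZ1 (-1.26 ± 0.16) were lower. The BCL11B difference (-0.38 ± 0.08, adjusted p = 0.000357 by edgeR) was not called without the TMM scaling of edgeR (-0.05, adjusted p = 0.621), which in this contrast moved the median of all genes from 0.38 to 0.05.

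PV/Th interneuron-like nuclei came from 4 clusters, and MEIS2 was uneven among them. Its pooled level was 170.5 CPM in 1 cluster, which gave 4 to 10 nuclei per library, and 41.1, 9.45 and 1.43 in the other 3. The share of PV/Th interneuron-like nuclei with a MEIS2 UMI at 5000 UMIs ranged from 2.78% to 12.2% between libraries. SST/NPY interneuron-like nuclei (103 nuclei, 8 to 21 per library), another class from the medial ganglionic eminence, combined the highest RARB level with low MEIS2, FOXP2 and EBF1. CCK/VIP interneuron-like nuclei reached 10 nuclei in 1 library only, where RARB was 124 and MEIS2 119 CPM.

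Neuroblast-like nuclei, named from markers of immature neurons such as DCX, carried 4 factors at a higher and 4 at a lower level than D1 MSN-like nuclei, where 56.3% of 11758 genes were called. SP9 (6.95 ± 0.43), TSHZ1 (2.31 ± 0.16), FOXP2 (1.96 ± 0.26) and MEIS2 (1.27 ± 0.14) were higher. EBF1 (-5.29 ± 0.28), RARB (-4.56 ± 0.23) and FOXP1 (-3.65 ± 0.17) were lower, as was BCL11B (-0.60 ± 0.15, adjusted p = 0.000495 by edgeR), whose call was lost without TMM scaling (-0.11, adjusted p = 0.539). The median of all genes moved from -0.09 to 0.40 without that scaling. The neuroblast-like nuclei were shallow, with library medians of 962 to 1809 UMIs against 14870 to 32217 in D1 MSN-like nuclei, so that their low counts of EBF1 and RARB are imprecise. EBF1 in them ranged from 0 in 2 control libraries to 38.0 in another.

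OVT73 was compared with control in the 9 classes that had enough nuclei in all 7 libraries, by edgeR's quasi-likelihood test on the summed UMIs of 3 against 4 libraries. Nothing in the labels pairs the libraries across genotypes. None of the 54 pairs of a factor and a class passed an adjusted p of 0.05 (lowest 0.536), and DESeq2 called none of the factors either. Of all genes, 0.0% were called in D1 MSN-like, D2 MSN-like, PV/Th interneuron-like, neuroblast-like, oligodendrocyte-like, astrocyte-like and microglia-like nuclei, 0.0163% (1 of 6142) in eccentric MSN-like nuclei and 0.0111% (1 of 9022) in OPC-like nuclei. Without adjustment, 7 of the 54 pairs (13%) had a p under 0.05, and between 3.85% and 8.14% of all genes did so in a class. The numbers of genes with such a p were 462, 508, 500, 300 and 176 in the D1, D2, eccentric, PV/Th and neuroblast-like classes and 552, 606, 339 and 277 in the oligodendrocyte, OPC, astrocyte and microglia-like classes. DESeq2 called 1, 3, 5, 0 and 0 and 4, 9, 0 and 0 genes in them.

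The point estimates leaned to higher levels in OVT73, with 40 of the 54 pairs above 0 and 14 below. The share of all genes above 0 was not counted, but their median log2 fold change lay between -0.03 and -0.01 in the 9 classes. MEIS2 was above 0 in 8 of 9 classes, FOXP1 and TSHZ1 in 7 of 9, BCL11B in 5 of 6, RARB in 4 of 7 and FOXP2 in 4 of 7. The classes come from the same libraries and are not independent of each other. The median log2 fold change of the tested factors was 0.19 in D1, 0.07 in D2 and 0.07 in eccentric MSN-like, 0.27 in PV/Th interneuron-like and -0.17 in neuroblast-like nuclei, beside medians of all genes of -0.02, -0.03, -0.01, -0.01 and -0.02. Without TMM scaling the medians of all genes were -0.12 in D1 MSN-like, -0.13 in D2 MSN-like and -0.11 in OPC-like nuclei. Single factors moved down as well, with FOXP1 in D2 MSN-like nuclei at -0.0002. How many of the 54 pairs lay above 0 without the scaling was not counted, and the part of the scaling in the lean was not tested.

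**Figure D4:**
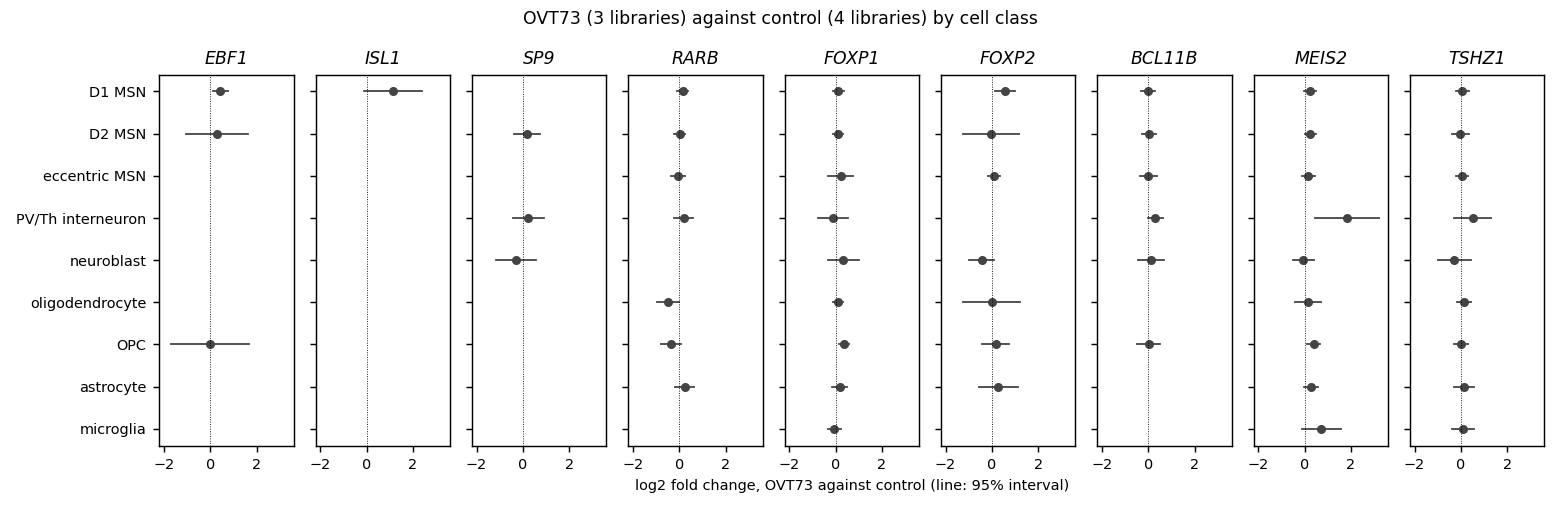
Log2 fold change of OVT73 (3 libraries) against control (4 libraries) for the 9 factors in 9 classes, where points are estimates of edgeR and lines are 95% intervals, and pairs without enough UMIs are left blank. Most intervals include 0, and the widest offset is MEIS2 in PV/Th interneuron-like nuclei at 1.81.

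In D1 MSN-like nuclei, FOXP2 was 93.4, 98.5 and 76.3 CPM in OVT73 and 58.8, 78.1, 80.6 and 45.5 in control libraries, which overlap. Its difference was 0.56 ± 0.19 (unadjusted p = 0.0152, adjusted p = 0.959 by edgeR, exact permutation p = 0.114 over 35 splits). EBF1, with the D1 values given above, differed by 0.44 ± 0.15 (unadjusted p = 0.0121, adjusted p = 0.959, exact p = 0.0857), and the OVT73 library with the lowest level lay below 2 control libraries. ISL1 differed by 1.13 ± 0.57 (adjusted p = 0.959, exact p = 0.2). Its UMIs were few, and the lowest OVT73 level of 1.13 CPM was below 3 of the 4 control levels. The exact tests are two-sided, and the smallest p that 3 against 4 libraries allow is 0.0286. Endothelial marker sums, relevant to EBF1, were 52.2 to 77.2 CPM in OVT73 and 74.3 to 121 in control D1 MSN-like nuclei, with CLDN5 at 0, and eccentric MSN marker sums, relevant to FOXP2, were 663 to 995 and 630.1 to 1146, with TH at 0. Their part in these differences was not tested. Without clusters c and d, FOXP2 was 41.2, 83.4 and 57.6 in OVT73 and 34.7, 66.6, 47.5 and 18.5 in control libraries (0.66 ± 0.40, adjusted p = 0.967) and EBF1 differed by 0.43 ± 0.15.

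In D2 MSN-like nuclei, MEIS2 was 1663, 1548 and 1490.3 CPM in OVT73 and 1448, 1558, 1327 and 1334 in control libraries (0.25 ± 0.11, unadjusted p = 0.0413, adjusted p = 0.900 by edgeR, exact p = 0.0857). The groups overlapped. SP9, the factor of the D2 branch, differed by 0.17 ± 0.25 (interval -0.39 to 0.72, adjusted p = 0.944). FOXP1 in D2 MSN-like nuclei differed by 0.10 ± 0.09 (interval -0.10 to 0.31) and BCL11B by 0.04 ± 0.14 (interval -0.27 to 0.35), so that the intervals of these abundant factors end at 0.35 or lower on the log2 scale. Whether the D1 and D2 classes differed in their OVT73 response was also tested: 0 of 9 factors passed, where 0.00771% (1 of 12971) of genes did. The D1 minus D2 difference was -1.56 ± 0.79 for SP9 (interval -3.14 to 0.03) and 0.11 ± 0.06 for RARB (interval from just below 0 to 0.22), each with an adjusted p of 0.999 by edgeR. The SP9 value rests on 14 UMIs in D1. It was -0.56 with the factors among the clustering genes and -0.46 with nuclei called from markers. With eccentric MSN-like nuclei also left out of the marker calls, it was -1.77. ISL1, with 1 UMI in D2, had too few counts to be judged in this test.

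In eccentric MSN-like nuclei the 6 tested factors lay within -0.07 and 0.21, the largest being FOXP1 at 0.21 ± 0.24. FOXP2, which was at its highest MSN level there, differed by 0.10 ± 0.12 (interval -0.16 to 0.35) and TSHZ1 by 0.04 ± 0.13 (interval -0.23 to 0.32). In neuroblast-like nuclei the differences were -0.44 ± 0.25 for FOXP2, -0.30 ± 0.32 for TSHZ1, -0.30 ± 0.41 for SP9 and -0.05 ± 0.21 for MEIS2, all with intervals that include 0.

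PV/Th interneuron-like nuclei gave the largest difference. MEIS2 was 105, 18.8 and 52.5 CPM in OVT73 and 7.14, 12.2, 30.4 and 21.1 in control libraries. The high OVT73 value is that of replicate 1, and OVT73 replicate 2 lay below 2 control libraries. The difference was 1.81 ± 0.61 (interval 0.43 to 3.20, unadjusted p = 0.0158, adjusted p = 0.994 by edgeR, exact p = 0.143). It ranged from 1.03 (without OVT73 replicate 1) to 2.23 when 1 library was left out, and was 0.63 when the factors were left in the genes used for clustering. In the MEIS2-rich cluster OVT73 replicate 1 had 10 nuclei at 464 CPM. Without this cluster, an alternative chosen after seeing the data, MEIS2 was 35.4, 13.6 and 53.2 in OVT73 and 0, 2.85, 11.6 and 18.1 in control libraries, too few UMIs for the filter of the test. With no filter on low counts, MEIS2 in the full class passed (1.88, adjusted p = 0.000401). Summed markers of MSNs in these nuclei were 1754 to 2124 CPM in OVT73 and 1803 to 2276 in control libraries, over 12 markers. Summed neuroblast markers, 11 in all, were 15307 to 16614 and 12166 to 16537, with CD24 at 0, and summed eccentric MSN markers, 9 in all, were 973 to 1276 and 874 to 1025, with RXFP1 at 0. ERBB4, TUBB3 and IGFBPL1 of the neuroblast list were raised in the largest PV/Th cluster itself, so that this sum does not measure neuroblast RNA alone. The part of these marker sums in the result was not tested.

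Of the 54 pairs, 3 did not overlap between genotypes on TMM-scaled levels. The library levels listed for them here are CPM without that scaling. BCL11B in PV/Th interneuron-like nuclei was 227, 269.7 and 236 in OVT73 and 198, 209, 192 and 219 in control libraries (0.31 ± 0.14, adjusted p = 0.994 by edgeR, exact p = 0.0286), in a class where 5.03% of all genes were apart in this way. In OPC-like nuclei, where 7.69% of genes were, FOXP1 was 359, 361 and 358 in OVT73 and 288, 293, 311 and 291 in control libraries (0.37 ± 0.10, adjusted p = 0.536, exact p = 0.0286). The 3 OVT73 values are close to each other and above every control value. MEIS2 in OPC-like nuclei was 364, 277 and 333 in OVT73 and 288, 271, 217 and 269 in control libraries, which overlap as CPM and were apart only after TMM scaling (0.39 ± 0.13, adjusted p = 0.692, exact p = 0.0286). The 3 pairs are 5.56% of 54, within the 5.03% to 7.93% of all genes that were apart in a class. Without the MEIS2-rich PV/Th cluster, an alternative chosen after seeing the data, BCL11B overlapped between genotypes as CPM. It was then 224, 263 and 245 in OVT73 and 222, 179, 220 and 243 in control libraries (0.23 ± 0.15, adjusted p = 0.987 by edgeR). Summed neuroblast markers in OPC-like nuclei were 4113 to 4464 CPM in OVT73 and 3541 to 3815 in control libraries, summed OPC markers 15153 to 16730 and 14494 to 14982, and summed astrocyte markers 409.5 to 431 and 461 to 524. These sums are apart between genotypes as well, and their part in the result was not tested.

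Other glial differences were of similar size and did not pass. RARB was lower in oligodendrocyte-like nuclei of OVT73 (-0.49 ± 0.22, interval from -0.98 to just above 0, adjusted p = 0.881 by edgeR). MEIS2 in microglia-like nuclei differed by 0.72 ± 0.39 (interval -0.12 to 1.57) at a level of only 38.8 ± 17.8 CPM.

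Counts of other factors of the same lineages are given beside the share of all genes called in each contrast. Of 34 further factors of the lateral ganglionic eminence and MSNs and 19 measured interneuron factors, the numbers tested varied with the contrast. Between D1 and D2 MSN-like nuclei, 1 of 21 tested eminence factors was higher in D1 and 7 were lower (11.7% of all genes were called), with a median of -0.20 beside 0.01 over all genes. PBX3 was higher (0.31 ± 0.03), and IKZF2 (-1.36 ± 0.11) and BCL11A (-0.44 ± 0.03) were lower. Of 7 tested interneuron factors, 1 was higher in D1, by a larger margin, and 1, NPAS3 (-0.34 ± 0.07), was lower.

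In eccentric MSN-like nuclei, 7 of 17 eminence factors were higher and 2 lower than in D1 MSN-like nuclei (28.4% of all genes were called), with BCL11A at 1.33 ± 0.08, PBX3 at 0.77 ± 0.06 and TSHZ2, a relative of TSHZ1, at -5.19 ± 0.32. Against D2 MSN-like nuclei, 5 of 18 were higher and 3 lower (27.7% of all genes were called), with PBX3 (1.07 ± 0.06), BCL11A (0.89 ± 0.08) and ZNF521 (2.46 ± 0.27) among the higher. PBX3, which is a partner of MEIS proteins, was thus higher in eccentric than in both main MSN classes. Interneuron factors split evenly there, with 2 of 6 higher and 2 lower against D1 (ZEB2 1.53 ± 0.44, NPAS3 0.56 ± 0.12, SATB1 -0.44 ± 0.14) and 1 of 5 in each direction against D2 (ZEB2 1.84 ± 0.36, SATB1 -0.43 ± 0.15).

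In PV/Th interneuron-like nuclei, 10 of 12 tested interneuron factors were higher and 2 lower than in D1 MSN-like nuclei (59.6% of all genes were called), led by PROX1 (9.50 ± 0.24), LHX6 (8.82 ± 0.22), SOX6 (8.14 ± 0.12) and ETV1 (4.31 ± 0.10). LHX6 and SOX6 are factors of neurons from the medial ganglionic eminence. Of 18 eminence factors 7 were higher, among them EBF4 (3.41 ± 0.15) and IKZF2 (3.25 ± 0.18), and 8 lower, among them BCL11A (-2.48 ± 0.12) and MN1 (-1.70 ± 0.14). In neuroblast-like nuclei 16 of 20 eminence factors were higher and 3 lower than in D1 MSN-like nuclei (56.3% of all genes were called), with DLX1 (8.55 ± 0.48), IKZF2 (4.00 ± 0.23), MEIS1 (2.98 ± 0.15) and NPAS2 (-5.83 ± 0.32), and 10 of 11 interneuron factors were higher and 1 lower, with ZEB2 (9.24 ± 0.27), PROX1 (8.09 ± 0.46) and ETV1 (4.84 ± 0.15). None of these factors was called between OVT73 and control in any class.

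Across the 14 classes, the genes whose level was most like that of each factor were ranked by Pearson's r of log2 levels. The classes share libraries, so r is a description. EBF1 was closest to PTGES (r = 0.855), SYCE1 and PPP1R16A, which all had their highest level in endothelial-like nuclei. Those levels were only 37.3, 13.3 and 26.1 CPM, in a class with 3 to 14 nuclei and 2668 to 25786 UMIs per library. They include libraries with few nuclei of the class and rest on few UMIs, so the ranking for EBF1 is imprecise. ISL1 was closest to GBX1 (0.964), a homeobox factor, and to TSPAN8 and INSRR, all highest in cholinergic-like nuclei. RARB was closest to THRB (0.872), SKAP1 and KCNQ3, FOXP1 to ACSS1 (0.824), TLE4 and FOXO1, and BCL11B to SYN2 (0.949), NMNAT2 and KCNAB1. GLCCI1 was nearest to FOXP2 (0.802), followed by OGT and GREB1. MEIS2 was closest to DHODH (0.908), GLCCI1 and RFX3, TSHZ1 to TMEM267 (0.802), ZDHHC17 and ZADH2, and SP9 to a gene given only by the identifier ENSOARG00020021764 (0.834), MYL6B and CALM2.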

How the data were processed

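Nuclei of 7 libraries were profiled by droplet single nucleus RNA-seq with 3′ counting. The deposited values are raw UMI counts per gene and barcode, which the authors made with Cell Ranger 7.0.0 and STAR 2.7.2a, as the submitters' processing notes name them, on the sheep genome Oar_rambouillet_v1.0. From them, nuclei with 200 to 7500 genes and at most 5% mitochondrial counts were kept (33957 of 35272 barcodes), and the 4% of each library with the highest doublet scores were removed (1358 in all, against 445 by the automatic threshold).

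Clusters (scanpy 1.11.5, 3000 variable genes without the 9 factors, 30 components, 20 neighbours, resolution 1.0) were formed after Harmony correction of the components by library. A cluster took the name of a class when 3 or more of its markers (5 for neuroblasts) lay above the other clusters by a log2 difference over 1. It stayed unnamed when the summed raised markers of an unrelated class reached 0.45 of those of the best class. Clusters with raised general MSN markers were split into D1 and D2 by the difference between their D1 and D2 marker scores (at least 1.0 in size), and D1 clusters b and d were named by that score with fewer than 3 raised D1 markers. These naming thresholds were set after marker profiles were seen. Of 53 clusters, 26 were named and 27, with 3925 nuclei, were not. Among the unnamed were MSN clusters of 642, 363, 113, 106, 65 and 60 nuclei whose D1 and D2 markers were not apart. The cluster of 65 nuclei had RELN and EBF1 as its leading genes. The D1 and D2 levels given here leave these nuclei out, so the separation holds for clusters with distinct D1 or D2 markers. MSN and interneuron clusters were clustered again.

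UMIs were summed per class and library and tested with edgeR 4.0.16 (filterByExpr, TMM, quasi-likelihood), adjusted over all genes tested, with R 4.3.3. Class contrasts had the library as a block, because both classes come from the same library. Libraries, not nuclei, are the replicates, and replicate numbers follow accession order and pair nothing. DESeq2 1.42.0, no TMM scaling, no filter, no doublet removal, equal numbers of nuclei and leaving out each library were alternatives. Shares of nuclei were taken after thinning to 5000 UMIs. Floors (3 counts) and intervals cover counting error only. On simulated counts for 12011 genes in the D1 class, 53% of 2-fold and 87% of 4-fold changes between genotypes were recovered.

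The 10 factors and the lists of other factors were chosen with earlier results of these data known. Named genes were the 10 factors, at most 4 called genes of each list and contrast by smallest p, and the 3 genes most like each factor. Some of these genes are not reported here. The assignment of nuclei to single sheep within pooled libraries was not used here.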

Additional observations from a re-analysis of the deposited data

Results flagged for a closer look

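In 54 sets of 4 control libraries, 1 set for each factor and class with a tested genotype difference, the highest or lowest library was compared with the rest, and 2 stood apart by Dixon's criterion for 4 samples. Chance flags about 1 in 20 such sets. RARB in PV/Th interneuron-like nuclei was 70.6 CPM in control replicate 2 against 99.1 to 104 in the other control libraries (gap over range 0.866). FOXP1 in astrocyte-like nuclei was 602 CPM in control replicate 4 against 483 to 496 in the others (0.886).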

How the results depend on the processing

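With the library block left out, 3 instead of 8 factors passed between D1 and D2 MSN-like nuclei and 3 instead of 5 between eccentric and D2 MSN-like nuclei. In each of these counts 1 factor (ISL1 and EBF1) was dropped by the filter of the fit without the block and not tested, so that 4 and 1 calls were lost in the test itself. With no filter on low counts, 1 factor (MEIS2) passed between genotypes in PV/Th interneuron-like nuclei, where 0 did otherwise, and MEIS2 was 0.36 with equal numbers of nuclei per library. The TSHZ1 difference between D1 and D2 MSN-like nuclei reversed to 0.20 with nuclei called from markers. The cause was not tested. Leaving out 1 library gave 8 to 9 called factors for D1 against D2, 6 to 7 for eccentric against D1, 4 to 5 for eccentric against D2, 8 for PV/Th and neuroblast-like against D1 MSN-like nuclei, and 0 in every genotype comparison and in the test of D1 against D2 responses. MEIS2 in eccentric against D1 MSN-like nuclei was not called with no filter (0.15, adjusted p = 0.109), without OVT73 replicate 3 (0.0612) or without the block (0.0547), and RARB was not called with no filter (0.225), without control replicate 1 (0.0683) or without control replicate 4 (0.0582). RARB was called between D1 and D2 MSN-like nuclei without OVT73 replicate 2 (adjusted p = 0.0495) and with nuclei called from markers (0.00333). MEIS2 and RARB were called between eccentric and D2 MSN-like nuclei without TMM scaling (adjusted p = 0.0189 and 0.0241), MEIS2 also without control replicate 1 (0.0400) or 4 (0.0440), and RARB without control replicate 2 (0.0393) or with the factors among the clustering genes (0.0438), where EBF1 was not called (-1.19, adjusted p = 0.0503). In microglia-like nuclei MEIS2 was -0.29 without doublet removal and -0.27 with equal numbers of nuclei. Of all genes, DESeq2 called 946 and the fit without the block 158 between D1 and D2 MSN-like nuclei, against 1515. Without TMM scaling, 71.2% instead of 51.1% of called genes were higher in PV/Th interneuron-like and 65.9% instead of 43.8% in neuroblast-like than in D1 MSN-like nuclei. Between genotypes, the unfiltered fit called 67, 31, 12, 8 and 29 genes in eccentric, OPC, PV/Th, astrocyte and microglia-like nuclei, and leaving out OVT73 replicate 1 gave 14 genes in the test of D1 against D2 responses. The ISL1, EBF1 and SP9 values in classes with few UMIs are limited by depth.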

Other observations

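The factors also formed 3 combinations in clusters that stayed unnamed. Unnamed cluster A (115 nuclei from 7 libraries, led by KCNIP4, FOXP2 and VWC2L) combined the highest FOXP2 level of the neuron clusters in the plot of clusters, 2947 CPM, with MEIS2 at 2191 and TSHZ1 at 777, while FOXP1 (181) and BCL11B (171) were low or moderate. Unnamed cluster C (77 nuclei, 38 of them from OVT73 replicate 1, led by CPNE4 and SCGN) held MEIS2 at 3118 and TSHZ1 at 742 but FOXP2 at only 41.8. SP9 was 52.8 in it. Unnamed cluster B (30 nuclei from 4 libraries, 14 of them from OVT73 replicate 3, led by CXCL14 and KCNIP4) had the opposite MEIS2 level, 20.1, with FOXP2 at 2124, BCL11B at 678 and FOXP1 at 572. Its 5 ISL1 UMIs gave 25.1 CPM. Cluster B had raised PDE1B, PDE2A and ARPP21 of the MSN list, but its D1 and D2 markers were not apart. Raised markers of the neuroblast list were DCX, ADARB2 and ERBB4 in cluster A, DCX, ADARB2 and NREP in B, and DCX, ADARB2, NREP and PROKR2 in C. That list was not used to name clusters from nuclei that were clustered again.

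Outside these, a cluster of 37 nuclei with raised markers of both pericytes and fibroblasts held EBF1 at 2934 CPM (194 UMIs), FOXP1 at 1195 and FOXP2 at 333, and had no BCL11B UMI. A cluster of 224 nuclei led by SLC17A6, the vesicular glutamate transporter 2 gene, of which 173 came from OVT73 replicate 1, held MEIS2 at 3851 CPM with FOXP2 at 33.6 and TSHZ1 at 61.1. These levels are pooled over libraries and have no error, and no test between genotypes was made in these clusters.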
